A study of Homo sapiens with 9 samples.

Results

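Clone S36 of the T-cell leukaemia line RPMI-8402 had 221 NKX2-1 antibody regions that were called in no other library and lay more than 10 kb from every peak of the WT clones. They were found by merging the peaks of 8 NKX2-1 antibody libraries on chromosomes 1 to 22, X and Y wherever they overlapped or touched, which gave 1643 regions. The 221 private regions made up 13.5% of these and 23.7% of the 934 peaks of S36. Because the regions were chosen by measured values, the peak calls themselves, their absence from the other libraries is a property of the choice and is not tested.

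ChIP-seq enriches formaldehyde-fixed, sonicated chromatin with an antibody and sequences the attached DNA. It was applied to 9 libraries of RPMI-8402, a T-ALL (T-cell acute lymphoblastic leukaemia) line of human origin grown in medium with 10% serum and fixed with 1% formaldehyde for 10 minutes. An antibody to NKX2-1 (TTF1) was used on 4 knockout clones (C12, C15, S04 and S36) and on the 4 clones of the WT genotype, named WT10, WT13, WT28 and finally WT30. The genotype field of the knockout clones names the gene alone, and the design text of the series calls them knockout. A single library with an antibody to H3K27ac has the same genotype field, no named clone and no replicate. Each clone is 1 library, so a difference between clones and a difference between library preparations cannot be told apart. The deposited lists give peaks without read counts, and the depth of each library is unknown.

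NKX2-1 is a homeodomain transcription factor best known as the regulator of lung and thyroid genes, and its ectopic activation defines a subset of T-ALL. H3K27ac, the acetylation of lysine 27 of histone H3, marks active promoters and enhancers, where transcription factors bind the nucleosome-depleted stretch between acetylated nucleosomes. ETS factors, which bind DNA around a GGAA core, occupy the promoters of many housekeeping genes and also direct T-cell development. Peak lists do not show whether a clone lacks the protein.

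The sequences below are promoters that S36 private regions overlapped. They are shown for the result on the ETS core and, in the case of ATP2B4, for its cluster of private regions. The ATP2B4 window holds 0 copies of the ETS core. They are the RefSeq promoter windows (GRCh38.p14) of 250 bases before to 50 bases after the start, 5′ to 3′ on the strand of the gene. SNRNP200 (chr2:96305497-96305796, minus strand) encodes the helicase of the U5 spliceosomal particle. IPPK (chr9:92670082-92670381, minus strand) encodes the kinase that makes inositol hexakisphosphate. FKBP1A (chr20:1393005-1393304, minus strand) encodes the immunophilin that binds rapamycin and FK506. POMP (chr13:28658880-28659179, plus strand) encodes the proteasome maturation protein. ACTR2 (chr2:65227581-65227880, plus strand) encodes the Arp2 subunit of the actin-nucleating Arp2/3 complex. ATP2B4 (chr1:203626582-203626881, plus strand) encodes a plasma membrane calcium pump. Capitals mark the ETS core CCGGAAG and the GC box GGGCGG on either strand.
SNRNP200: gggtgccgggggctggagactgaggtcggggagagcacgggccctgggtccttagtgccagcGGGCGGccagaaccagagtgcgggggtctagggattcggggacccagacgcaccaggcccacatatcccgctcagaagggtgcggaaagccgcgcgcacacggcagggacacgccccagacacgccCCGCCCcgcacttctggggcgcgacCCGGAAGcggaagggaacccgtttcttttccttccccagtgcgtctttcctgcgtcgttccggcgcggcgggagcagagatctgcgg
IPPK: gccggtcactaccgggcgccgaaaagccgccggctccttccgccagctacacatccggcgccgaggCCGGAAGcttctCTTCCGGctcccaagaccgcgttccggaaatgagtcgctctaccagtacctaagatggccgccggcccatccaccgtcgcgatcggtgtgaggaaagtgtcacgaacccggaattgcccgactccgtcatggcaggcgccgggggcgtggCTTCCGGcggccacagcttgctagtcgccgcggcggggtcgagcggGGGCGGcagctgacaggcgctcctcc
FKBP1A: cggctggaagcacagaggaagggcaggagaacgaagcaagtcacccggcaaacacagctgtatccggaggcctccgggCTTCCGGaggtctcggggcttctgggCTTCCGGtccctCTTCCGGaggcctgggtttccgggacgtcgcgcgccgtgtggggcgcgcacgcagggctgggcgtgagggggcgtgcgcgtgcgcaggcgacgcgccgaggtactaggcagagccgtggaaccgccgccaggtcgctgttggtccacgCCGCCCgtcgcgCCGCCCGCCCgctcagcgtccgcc
POMP: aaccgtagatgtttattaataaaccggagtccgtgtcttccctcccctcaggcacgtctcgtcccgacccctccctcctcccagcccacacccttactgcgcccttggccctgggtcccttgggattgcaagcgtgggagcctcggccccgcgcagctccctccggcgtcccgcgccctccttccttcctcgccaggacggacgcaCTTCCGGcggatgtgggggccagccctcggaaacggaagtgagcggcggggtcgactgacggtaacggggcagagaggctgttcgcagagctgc
ACTR2: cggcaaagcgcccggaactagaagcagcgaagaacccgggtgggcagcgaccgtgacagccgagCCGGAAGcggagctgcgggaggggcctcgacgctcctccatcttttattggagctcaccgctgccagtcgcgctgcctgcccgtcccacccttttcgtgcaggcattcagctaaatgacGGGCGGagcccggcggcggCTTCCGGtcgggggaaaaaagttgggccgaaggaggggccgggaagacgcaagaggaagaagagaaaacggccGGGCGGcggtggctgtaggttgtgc
ATP2B4: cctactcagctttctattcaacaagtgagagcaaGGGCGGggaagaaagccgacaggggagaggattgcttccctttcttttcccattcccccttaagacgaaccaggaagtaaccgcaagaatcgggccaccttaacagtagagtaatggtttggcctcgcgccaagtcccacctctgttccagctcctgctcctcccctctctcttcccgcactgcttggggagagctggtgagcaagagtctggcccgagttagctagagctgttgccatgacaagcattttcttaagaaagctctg

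S36 held most of the private regions of the knockout clones. Against 221 in S36, the same rule gave 8 private regions in C12, 9 in C15 and 9 in S04. With the genotypes exchanged in the rule, WT10 had 172, WT13 had 4, WT28 had 32 and WT30 had 17. S36 and WT10 stood above the other clones of their genotype. They also had the longest peak lists, with 934 peaks in S36 among 810 to 934 in knockout clones, and 1144 peaks in WT10 among 742 to 1144 in WT clones. Whether library depth played a part was not tested, since read counts are not in the files used here.

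**Figure D1:**
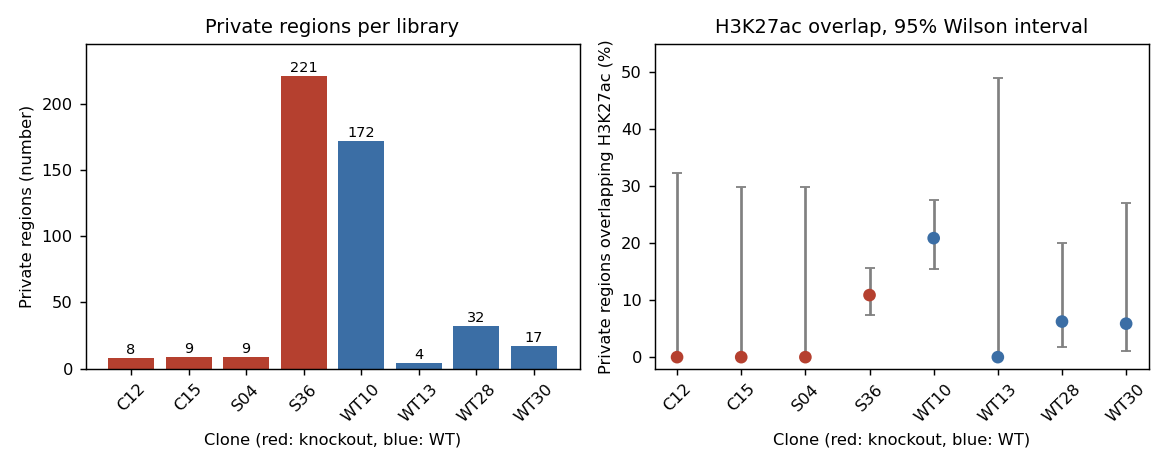
Number of private regions in each clone (left) and percent of them overlapped by an H3K27ac peak, with the 95% Wilson interval (right). Red marks knockout clones and blue WT clones, 1 library each. S36 had 221 private regions with 10.9% overlapping H3K27ac, and WT10 had 172 with 20.9%.

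Each of the 221 regions was a single S36 peak, and most were weak. Their deposited fold enrichment, the authors' own value for each peak, ran from 3.5 to 13.3 with a median of 6.39 and quartiles of 5.41 and 7.35. Their −log10 q ran from 2.93 to 27.2 with a median of 7.51. In the S36 list ranked by q the best private region stood at rank 131 of 934, and 0 of the first 100 were private. Of the 221, 60 had a −log10 q of 10 or more and 26 were below 5. The median length was 283 bp, with a range of 200 to 827 bp. By comparison, the other 593 regions with an S36 peak had a median fold of 7.54 and a median −log10 q of 14.7, at the strongest S36 peak of each. Their median length of 542 bp is that of regions merged over the libraries, so it does not compare with the length of single S36 peaks. Many values were tied, with 118 private regions sharing both fold and q with another one. The largest tie held 12 regions at a fold of 6.83, so small differences in rank among them carry no order.

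The private regions with the highest fold were spread over unrelated genes. The first, at 13.3-fold (chr5:1096694-1096985), lay inside SLC12A7, which encodes a potassium-chloride cotransporter. At 11.5-fold, a region on chromosome 10 (72297195 to 72297633) lay 21337 bp from DDIT4, a stress-induced inhibitor of mTOR complex 1. Neither of these regions overlapped an H3K27ac peak. A further region at 11.5-fold lay 1481 bp from ZAN, the sperm protein zonadhesin, and had exactly the same fold and q as the DDIT4 region. The ATP2B4 promoter region reached 11.3-fold, with its summit 223 bp before the gene. KCNMA1, the pore subunit of the large-conductance calcium-activated potassium channel, held a region of 11.3-fold that was 1751492 bp from the nearest H3K27ac peak. PMAIP1, which encodes the pro-apoptotic protein NOXA, had a region of 11.1-fold 44821 bp before it. The remaining members of the 10 with the highest fold lay in GALNTL6 (11-fold), in CRK (10-fold), beside CYBC1 (9.9-fold) and 15832 bp from ANKRD9 (9.69-fold). A region in URM1 had the same fold and q as the last of these, so its place among the 10 was a tie. Of these 10 regions, those at ATP2B4 and CYBC1 overlapped H3K27ac, in both cases with the summit outside the H3K27ac peak.

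An H3K27ac peak overlapped 24 of the 221 private regions of S36, or 10.9% (95% Wilson interval 7.41 to 15.6). Over all 1643 regions the background was 107, or 6.51%. Among the other 593 regions with an S36 peak 21 overlapped H3K27ac, 3.54% (2.33 to 5.35). These intervals, which cover counting error only, do not meet, but the 593 include 315 regions called in all 8 libraries. Of those 315, 0 overlapped H3K27ac, so that a share of up to 0.952% is allowed. The other 278 S36 regions had 21, 7.55% (4.99 to 11.3), an interval that overlaps that of the private regions. The private regions of S36 held the larger part of its H3K27ac overlap, since 24 of 45 S36 regions at an H3K27ac peak were private. Of the other 21, 16 were also called in WT10. Of all 593 other S36 regions WT10 had 472, but this count includes the 315 called in all 8 libraries, so these shares are not like for like. WT10 private regions overlapped H3K27ac in 36 of 172 cases, 20.9% (15.5 to 27.6), above the share of S36, although the intervals touch. The 26 private regions of C12, C15 and S04 together had 0, which allows up to 11.5%, so a share like that of S36 was not detectable in them.

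Compared over clones, the share of private regions at H3K27ac averaged 2.71% ± 5.43 in knockout clones and 8.27% ± 8.92 in WT clones (SD, n = 4 each). The difference of -5.55 percentage points did not exceed the spread between clones (two-sided exact permutation test, p = 0.371, adjusted p = 0.657 over 2 tests). The smallest p this design allows is 0.0286. S36 was the only knockout clone with a share above 0, and WT13 had 0 of 4, so the groups overlapped.

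The H3K27ac peaks that private regions overlapped mostly had a fold at or above the list median. The list holds 9857 H3K27ac peaks covering 5.62 Mb, with a median fold of 6.19, and 25 of them overlapped an S36 private region. These 25 had a median fold of 7.9, and 19 of them were at or above the median of the list. The length of the H3K27ac peaks was not taken into account. With only H3K27ac peaks at −log10 q of 10 or more, the share of private regions overlapping one was 4.07%. Among the 986 H3K27ac peaks of highest fold, 8 were overlapped by S36 private regions and 19 by WT10 private regions. The strongest was in ETV6, an ETS-family repressor, where a private region of 5.73-fold (chr12:11798891-11799157) lay under an H3K27ac peak of 18.6-fold, rank 33 of the list. IDNK, a gluconate kinase, had a private region of 5.54-fold under an H3K27ac peak of 16.9-fold. UBE2D3, a ubiquitin-conjugating enzyme, had one of 4.96-fold under a peak of 16.7-fold. PRKCB, a protein kinase C isoform, had one of 7.4-fold that overlapped a peak of 15.5-fold, with its summit outside that peak. GRK2, the kinase of G protein-coupled receptors, held 2 private regions. The one of 5.02-fold overlapped an H3K27ac peak of 6.43-fold, and the one of 5.46-fold overlapped 2 H3K27ac peaks, the stronger of 13.3-fold. By antibody fold the order was different. ATP2B4 (11.3-fold), CYBC1 (9.9-fold, a chaperone of the phagocyte oxidase), SDHA (8.3-fold, a subunit of succinate dehydrogenase), SNRNP200 (7.61-fold) and PPCDC (7.54-fold, an enzyme of coenzyme A synthesis) led, and the H3K27ac peaks at the first 4 of them had folds of 4.97 to 5.94. CD200, an inhibitory surface ligand, EVL, an actin regulator, and ARHGDIB followed with 7.27-fold, 7.16-fold and 6.8-fold. The last of the 10 was a region of 6.47-fold under an H3K27ac peak of 7.07-fold, 310436 bp from its nearest gene, SARAF.

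The private regions also lay beside H3K27ac peaks. Within 1 kb of one were 49 of 221, 22.2% (17.2 to 28.1), against a background of 11.1% over all regions and 30 of 593, 5.06% (3.57 to 7.13), among the other S36 regions. Without the regions called in all 8 libraries, the other S36 regions had 30 of 278, 10.8% (7.66 to 15). WT10 private regions had 62 of 172, 36% (29.2 to 43.5). The 26 private regions of C12, C15 and S04 together had 0, 0% (0 to 12.9). Of the S36 regions, 25 lay within 1 kb without overlap, 26 at 1 to 10 kb, 66 at 10 to 100 kb and 80 farther than 100 kb. The median gap was 45.1 kb. The fold of the private regions varied little with this distance, with medians of 6.19 for overlap, 5.61 within 1 kb, 6.28 at 1 to 10 kb, 6.48 at 10 to 100 kb and 6.47 beyond.

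**Figure D2:**
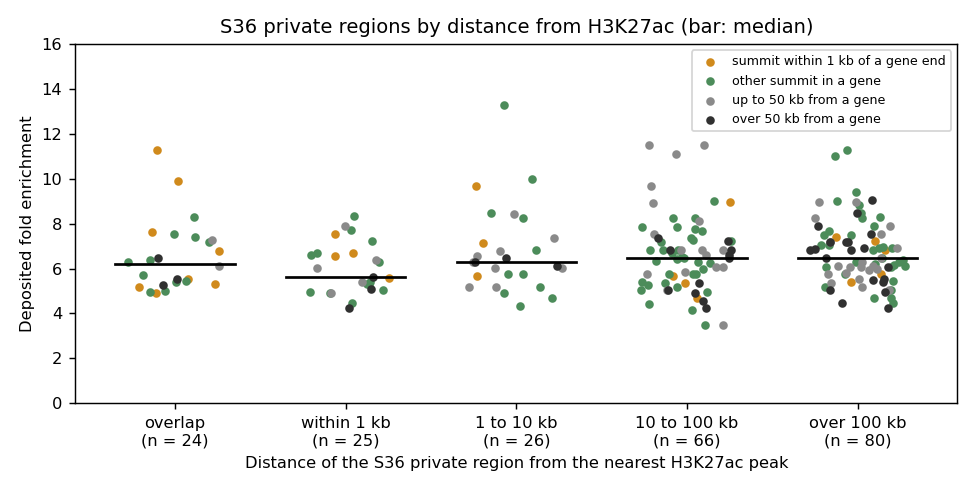
Deposited fold enrichment of the 221 S36 private regions by distance from the nearest H3K27ac peak. Each point is 1 region, coloured by its place relative to protein-coding genes, and the bar is the median. The medians lie between 5.61 and 6.48, and the highest point is the SLC12A7 region at 13.3-fold.

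In 10 of the 25 regions beside H3K27ac the peak sat between a pair of H3K27ac peaks, each within 1 kb. This position was not counted over all regions or in WT10, so the count describes these private regions only. In NOTCH1, the receptor gene most often mutated in T-ALL, a private region of 5.03-fold (chr9:136530046-136530250) lay 2 bp from an H3K27ac peak on its left and 44 bp from one on its right. Upstream of FKBP1A a region of 7.54-fold had H3K27ac at 157 bp and 16 bp, and near APOD, a lipocalin gene, a region of 5.07-fold had it at 16 bp and 28 bp. These gaps are narrower than the private regions themselves. ETS1, a founding ETS factor of lymphocytes, held a region of 6.69-fold with H3K27ac at 599 bp and 648 bp. ST8SIA6, a sialyltransferase gene, held 2 such regions of 5.3-fold each, within a span of 474 bp and between the same H3K27ac peaks. ARRB1, a beta-arrestin gene, HIPK2, a nuclear kinase gene, and the neighbourhood of KCTD1 had further regions of this kind, with folds of 4.47 to 6.01.

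**Figure D3:**
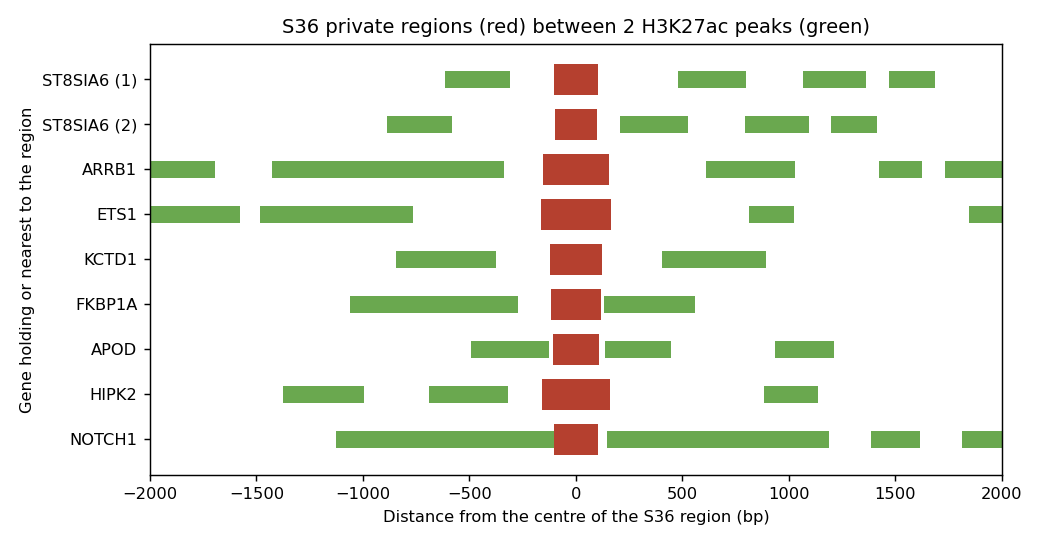
S36 private regions (red) that lay between H3K27ac peaks (green), centred on each region, with distance in bp along the chromosome. The 9 rows drawn are named by the gene that holds or is nearest to the region, and the NOTCH1 region has H3K27ac at 2 bp and 44 bp.

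The other 15 regions beside H3K27ac had a peak within 1 kb on 1 side. The highest fold among them was 8.36, in RASSF5, a regulator of lymphocyte adhesion, with H3K27ac at 467 bp. IKZF3, the lymphoid zinc-finger factor Aiolos, had a region of 7.9-fold 3282 bp outside the gene and 196 bp from H3K27ac. PRKAR1B, a regulatory subunit of protein kinase A, held one of 7.73-fold at 168 bp. ITPKB, a kinase required for thymocyte maturation in the mouse, held 3 private regions of 4.96-fold to 7.22-fold, 1 of them 759 bp from H3K27ac. The nuclear receptor genes RXRA and RARA held regions of 6.59-fold and 4.96-fold, at 147 bp and 156 bp. RHOH, a GTPase of T-cell receptor signalling, held one of 6.31-fold at 220 bp, with its summit 1 bp from the listed start. The remaining regions were in FAM167B, IPPK's promoter and ITGB2 and nearest to HSPB8, C2orf42, BRD1, ALAS1 and LOC107985876, with folds of 4.24 to 6.69.

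Seen from genes, 24 private regions had a summit no more than 1 kb from either end of a coding gene, or 10.9% (7.41 to 15.6). The background was 4.26% over all regions, and the other S36 regions had 21 of 593, 3.54% (2.33 to 5.35). Without the regions called in all 8 libraries, the other S36 regions had 19 of 278, 6.83% (4.42 to 10.4), an interval that overlaps that of the private regions. WT10 private regions had 17 of 172, 9.88% (6.26 to 15.3), an interval that overlaps that of S36. The summit lay inside a protein-coding gene in 114 private regions, 51.6% (45 to 58.1), against a background of 22.8%, 17.4% (14.5 to 20.6) of the other S36 regions and 44.8% (37.5 to 52.2) of the WT10 private regions. For the other S36 regions not called in all 8 libraries this share was 27.7% (22.8 to 33.2). The 26 private regions of C12, C15 and S04 together had 5 inside genes, 19.2% (8.51 to 37.9). Of these 26, 1 was at a gene end, 3.85% (0.682 to 18.9). Over clones, the gene-end share averaged 5.49% ± 6.34 in knockout clones and 4.81% ± 5.56 in WT clones (SD, n = 4 each). This difference of 0.678 percentage points was within the spread (two-sided exact permutation test, p = 0.657, adjusted p = 0.657), and its direction turned under 6 of the 22 alternatives.

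Regions at gene ends were the ones most often next to H3K27ac. Of the 24, 12 were within 1 kb of an H3K27ac peak, 50% (31.4 to 68.6). Of 103 other regions inside genes the count was 24, 23.3% (16.2 to 32.3). It was 7 of 54 (13%) up to 50 kb from a gene and 6 of 40 (15%) farther out. The 12 included RPS19, a ribosomal protein gene, with a private region of 5.33-fold whose summit was 427 bp before the start. This region overlapped an H3K27ac peak of 11.7-fold. BHLHE40, a transcriptional repressor gene of activated lymphocytes, had a region of 5.17-fold 574 bp before its start, which overlapped a peak of 7.9-fold. In both genes the summit lay outside the H3K27ac peak. Other gene ends had no H3K27ac near. URM1, a ubiquitin-like protein gene, had a region of 9.69-fold with H3K27ac at 5318 bp. TNNI3, cardiac troponin I, had one of 8.97-fold with H3K27ac at 97837 bp.

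Some private regions had a summit close to a gene start. Of the 218 private regions on chromosomes with entries in the promoter table, 19 had a summit within 1 kb of a listed start, 12 before it and 7 at or after it, and 13 of the 19 were within 250 bp. Since the table is not complete, these counts are lower limits. No background over all regions is given for starts, so the counts describe the private regions only. The summit was 12 bp before the start of SNRNP200, 5 bp before that of IPPK, 38 bp before that of POMP and 143 bp before that of FKBP1A. At ACTR2 it was 107 bp after the start, and at ARPC3, another Arp2/3 subunit, 50 bp after. The H3K27ac gap was 0 bp at SNRNP200, 90 bp at IPPK and 16 bp at FKBP1A, but 218420 bp at POMP, 97787 bp at ACTR2 and 18039 bp at ARPC3. Promoters with and without H3K27ac in that single library were thus both present.

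The promoter windows that a private region overlapped were searched for 9 short motifs on both strands. A protein-coding window was overlapped by 14 private regions, in 16 windows of 14 genes, with TAF1B and UBE2D3 counted in 2 overlapping or neighbouring windows each. The ETS core CCGGAAG was in 8 of the 16 windows, 50% (28 to 72), and in 7 of the 14 genes: ACTR2, ARPC3, FKBP1A, IPPK, POMP, SNRNP200 and TAF1B. Of all 22078 protein-coding windows 12.8% held it, of the 4305 with H3K27ac within 1 kb 20.8%, and of 15 windows at WT10 private regions 3, or 20%. FKBP1A and IPPK held 3 copies each, as the capitals in the printed sequences show, and ACTR2, ARPC3 and TAF1B held 2 each. The GC box GGGCGG was in 9 of 16 windows, 56.2%, against 56.3% of all windows. Cores known for NKX2-1 were not more frequent beyond counting error. CAAGTG was in 2 windows, at ATP2B4 and UBE2D3 (12.5%, interval 3.5 to 36, against 10.4% of all). CTCAAG was in 3 windows (18.8%, interval 6.59 to 43, against 11.3% of all). The RUNX core TGTGGT was in 1 window, the E-box CAGCTG in 3 and the CCAAT box in 6. The TATA box TATAAA and the cyclic AMP element TGACGTCA were in 0. Median GC content was 63.3%, against 62.3% over all windows. The median ratio of observed to expected CpG, a dinucleotide that the ETS core contains, was 0.86 in the 16 windows, against 0.736 over all windows and 0.873 over those with H3K27ac within 1 kb. The part of composition in the motif share was not tested. A match describes letters in the window and is not a bound site.

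ATP2B4 had the largest cluster by number of private regions. The gene had 4 of them over a span of 2824 bp just before its start (chr1:203623965-203626788), with folds of 5.18, 6.03, 4.89 and 11.3 in the order of the chromosome. The 2 nearest to the start overlapped the same H3K27ac peak of 5.94-fold, and the next H3K27ac peaks lay 1222 bp and farther after the last region. A further private region of 7.38-fold lay 9965 bp beyond the gene. Inside ATP2B4 another region of 5.46-fold in S36 overlapped H3K27ac and was also called in WT10 and WT28, so it is not private.

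**Figure D4:**
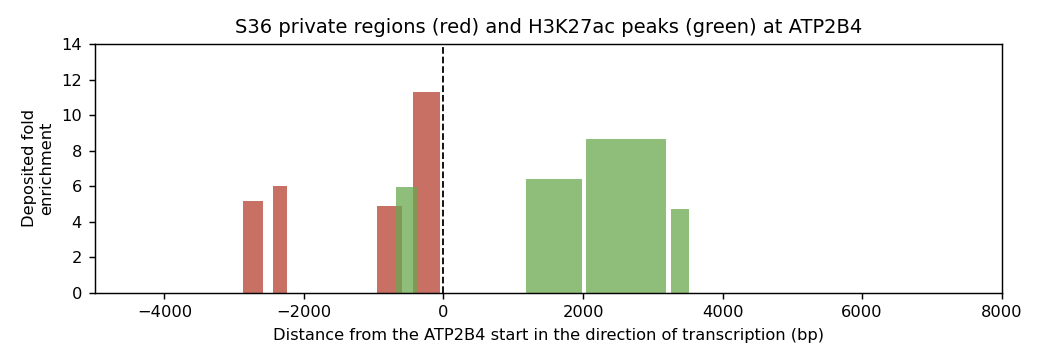
S36 private regions (red) and H3K27ac peaks (green) around the ATP2B4 start, with distance from the start in bp and the height of each block giving its deposited fold enrichment. The highest red block is the 11.3-fold region just before the start, which shares an H3K27ac peak of 5.94-fold with its neighbour.

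Clusters like this were few. With neighbours joined at gaps up to 100 kb, 34 of the 221 private regions (15.4%) fell into 15 clusters, 12 of them pairs. The 3 clusters of more than 2 were at ATP2B4, at ITPKB and over SNPH and FKBP1A. DDIT4 had a pair of 6.06-fold and 11.5-fold. PAX7, a muscle factor gene, had a pair of 5.74-fold and 8.48-fold. In WT10, 19 of 172 private regions (11%) fell into 8 clusters. The median distance to the nearest private neighbour was 2.18 Mb in S36 and 4.77 Mb in WT10.

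By chromosome the private regions were uneven. Chromosome 1 held 33, chromosome 10 held 24, chromosomes 3 and 9 held 17 each and chromosome 20 held 15. Per 1000 protein-coding genes the densest were chromosome 10 with 32.7, chromosome 20 with 27.9 and chromosome 9 with 21.9. Merged regions of any kind were uneven too, with 126, 65 and 112 on these 3 chromosomes. Chromosomes 19, 11 and 13 had only 31, 30 and 8 merged regions, of which 10, 9 and 3 were private to S36. WT10 had 2, 3 and 1 private regions on chromosomes 10, 20 and 9, while chromosome 17 held 13 for S36 and 24 for WT10. Regions called in all 8 libraries were compared without using the private calls. The median log2 fold of S36 minus that of the other libraries was 0.04 on chromosome 10 (44 regions), 0.29 on chromosome 20 (17 regions) and 0.34 on chromosome 9 (7 regions). Over all chromosomes with such regions the medians ran from -0.06 on chromosome Y (11 regions) to 1.41 on chromosome 19 (1 region). Several of these medians rest on few regions, and copy number in the clones was not tested.

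**Figure D5:**
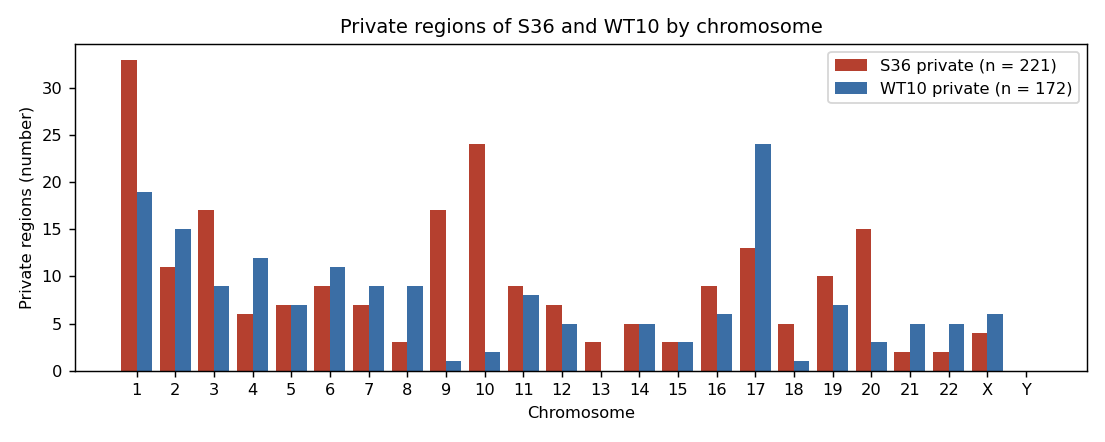
Number of private regions on each chromosome in S36 (red, 221) and WT10 (blue, 172), 1 library each. S36 had 24 on chromosome 10 and 17 on chromosome 9, where WT10 had 2 and 1.

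Genes of T-ALL and T-cell pathways were met by single regions only. Of 17 lists with 534 genes, 12 genes (2.25%) had a private region within 10 kb, against a background of 0.828%, or 166 of all 20037 protein-coding genes. H3K27ac within 10 kb was found at 94 of the 166 genes (56.6%) and at 29% of all genes. The lists were chosen with results of these data known, so the share is a description. Among ETS factors 2 of 27 genes were met, ETS1 and ETV6. T-cell receptor signalling had 2 of 32. These were LCK, the kinase bound to the CD4 and CD8 coreceptors, with a region of 6.69-fold 2606 bp from the gene and inside the neighbouring FAM167B, and VAV1, an exchange factor, with one of 5.65-fold. NOTCH1 was the single gene met of 26 in the NOTCH list, and IKZF3 that of 36 T-cell identity genes. JAK1, the kinase below cytokine receptors, held a region of 8.28-fold as the single gene of 20 in its list. FAS, the death receptor, held one of 9.4-fold with a −log10 q of 23.3, in a stretch that also lies in ACTA2, and was the single gene of 26 in the apoptosis list. Ribosomal proteins had RPS19 and RPL39 of 76, the second at 7499 bp with 6.83-fold. Stress genes had DDIT4 and BTG2 of 39. BTG2, an antiproliferative gene, had a region of 5.18-fold at 8896 bp.

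The other 9 lists had no gene within 10 kb of a private region. They were the T-ALL oncogenic factors (24 genes), RUNX1 and its partners (16), cell cycle (31), DNA damage response and repair (47), chromatin regulators (28), translation, splicing and housekeeping genes (48), B-cell and myeloid genes (22), lung and thyroid targets of NKX2-1 (24) and replication-dependent histones (22). For a list of this size a count of 0 is near the background. The NKX2-1 gene had no peak within 10 kb in any of the 8 libraries, and 0 private regions. H3K27ac lay within 10 kb of 8 of 10 T-lineage markers (not CD7 and CD2), 1 of 5 B-lineage markers and 3 of 5 myeloid markers. None of the 209 peaks of the authors' combined list overlapped a private region, and the nearest was 11486 bp away. Private regions were chosen to lie more than 10 kb from every WT peak and outside all other libraries. This absence may therefore follow from the choice and is not a test.

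The limit of 10 kb decided few members. S36 had 232 regions called in no other library, of which 11 were dropped for a WT peak less than 10 kb away. The private regions nearest to a WT peak were at RAB4A (11378 bp, 5.27-fold), NTSR1 (41427 bp, 6.39-fold) and ATP2B4 (47248 bp, 11.3-fold). Just outside were regions at KCNJ18 (2302 bp, 5.75-fold) and PSMD14 (2276 bp, 7.18-fold). The rule set no distance to the other knockout clones, and 7 of the 221 lay within 10 kb of a peak of C12, C15 or S04. These were at FAM120B, CNTN6, RHOH, ANKRD9, ITGB2, PRKD2 and NTSR1, the first of them 223 bp from an S04 peak and 301 bp from peaks of C12 and C15.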

How the data were processed

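ChIP-seq of 9 RPMI-8402 libraries was processed by the submitters with FastQC, Bowtie2, SAMtools, MACS2 and deepTools on build hg38, per the submitters' processing notes. Versions, thresholds and the control: not given in the sources used here. From them narrowPeak lists were deposited by the authors, whose columns hold, per peak, a fold enrichment (a ratio to background), −log10 p and −log10 q values, a score and a summit. The deposited score was used only in a check, which found it equal to 10 times the −log10 q, without decimals, in 9242 of 9243 peaks. Depth is unknown.

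On chromosomes 1 to 22, X and Y, peaks were merged where they overlapped or touched (minimum overlap 1 bp). Python 3.11.15, numpy 2.4.6, scipy 1.17.1 and pandas 2.3.3 were used. Genes and promoter windows came from RefSeq tables of GRCh38.p14, the same assembly as hg38 for these chromosomes, and distances were measured from the deposited summit. Intervals are 95% Wilson intervals, and the limit of a count of 0 is 3 counts of the total; both cover counting error only. Shares were compared over 4 knockout and 4 WT clones by two-sided exact permutation tests with Benjamini-Hochberg adjustment. Scripts were tested on simulated peaks. Named regions were the 10 with the highest fold among all private regions, those overlapping H3K27ac and those at gene ends and every listed gene within 10 kb of one. A few named items are not reported here. The members and lists were chosen with earlier results of these data known.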

Additional observations from a re-analysis of the deposited data

Results flagged for a closer look

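S36 stood apart from the other knockout clones, and WT10 from the other WT clones, by the gap between the highest value and the next in groups of 4. Chance gives such a gap in about 1 in 20 groups, but that rate does not apply here, since S36 was chosen for its private regions and, where the other 3 values are 0, any share above 0 is marked. The number of private regions was 221 in S36, against 8 to 9 in C12, C15 and S04. WT10 had 172, against 4 to 32 in WT13, WT28 and WT30. The share of private regions overlapping H3K27ac was 10.9% in S36 and 0% in the other knockout clones, which had 8 to 9 private regions each. The share within 1 kb of H3K27ac was 22.2% in S36 and 0% in the others, whose Wilson upper bounds of 29.9 to 32.4% for both shares lie above the values of S36. The median private length was 283 bp in S36, against 202 to 202.5 bp in C12, C15 and S04. These values are not independent of each other, and their causes were not tested.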

How the results depend on the processing

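Of 141 alternatives over 7 results, 124 kept their direction and side of the threshold or, for values without a test, moved by no more than the set tolerance, 11 moved further and 6 turned direction. The knockout minus WT differences varied widely in size among the 124, the H3K27ac one reaching -2.6 and -11.1 points and the gene-end one 0.0136 and 10. The number of private regions fell to 106 when every library was restricted to −log10 q of at least 10 and to 104 with the 500 strongest peaks of each, since fewer peaks entered. The median fold was then 8.39 and 8.57, and the share inside genes was 58.5% under the first. The H3K27ac share was 4.07% with the H3K27ac list so restricted, 5.88% with the summit inside, and 22.2% within 1 kb. The gene-end share was 23.1% within 5 kb and 20.8% with all genes of the table, with 63.8% then inside genes. The knockout minus WT difference in gene-end share was -0.104 points with no distance limit, -1.63 with every library at −log10 q of at least 5 and -2.46 with only the private library's peaks so restricted; the cause was not tested.

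Leaving out 1 clone at a time gave 222 to 244 private regions of S36, H3K27ac shares of 10.3 to 11.2%, gene-end shares of 10.7 to 12.6%, and knockout minus WT differences of -8.11 to -4.25 points for H3K27ac and -1.28 to 10 for gene ends. The gene-end difference turned to -1.08 without S04, -0.852 without WT13 and -1.28 without WT30. Without S36 the gene-end difference was 10, and there were no private regions of S36 to describe. The p range was 0.114 to 0.714 for H3K27ac and 0.171 to 1 for gene ends (exact permutation tests). With −log10 q of at least 10, 1 clone had no private region, and 7 entered. No paired analysis was possible because the clone names share no replicate numbers. Unknown depth limits every comparison of peak numbers.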
